A study of Homo sapiens with 2 samples.

Results

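Cells with a cartilage gene programme were examined among SOX2 reporter-positive cells sorted from human inner ear organoids. They were selected on measured counts of marker genes. A cell was included when it had at least 1000 detected genes, at most 15% of its counts from mitochondrially encoded genes and at least 3 unique molecular identifiers (UMIs, each standing for 1 captured RNA molecule) summed over ACAN, CNMD and MATN4. It also had to have under 5 UMIs of OC90, an otic epithelium gene, under 3 of CDH19, a glial gene, and under 3 summed over MKI67, TOP2A and UBE2C, which mark dividing cells. Of 31818 cells that passed the first 2 limits, 5436 met the rule and are called cartilage-rule cells here. They were 3784 of 21319 cells in the GelNB-CH library and 1652 of 10499 cells in the Matrigel library.

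Both libraries came from the human embryonic stem cell line WA25 with a nuclear tdTomato reporter at SOX2 (the line SOX2nT), and in both the organoids were taken on day 40, dissociated for 90 min in Accutase and sorted for tdTomato before loading on the 10x Genomics 3′ assay. GelNB-CH is a gelatin-based hydrogel, made here with 0.1 wt% of a thiol crosslinker. Matrigel is a basement membrane extract of mouse tumour origin. The labels carry 1 growth text for both libraries, with GelNB-CH embedding on day 11, oxidized dextran at 0.02% on day 15 and a dilute Matrigel supplement at the start, so the embedding of the Matrigel library is not described in the sources used here. Each hydrogel has 1 library of 1 reporter line, cells of a library are not replicates, and no test between the hydrogels was possible. The intervals below are exact 95% intervals for counting error only.

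Cartilage forms when condensed mesenchyme turns on SOX9 together with SOX5 and SOX6, which drive genes for type II collagen, its partner collagens IX and XI, aggrecan and link protein. Collagen fibrils give the tissue tensile strength, and aggrecan held on hyaluronan by link protein swells it with water. In the embryo, mesenchyme around the otic vesicle forms the cartilage of the otic capsule. ACAN encodes aggrecan, CNMD encodes chondromodulin, an inhibitor of blood vessel growth in cartilage, and MATN4 encodes a matrilin that links matrix fibres.

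Promoter windows of HAPLN1, EPYC and CNMD are printed because the first is link protein, the second is epiphycan, a small leucine-rich proteoglycan of growing cartilage, and both were far above mesenchyme in these cells, while the third was used by the rule. The windows run from 250 bases before to 50 after the annotated start (RefSeq, GRCh38.p14), and each gene is on the minus strand, with the window of HAPLN1 at chr5:83720806-83721105, of EPYC at chr12:91004923-91005222 and of CNMD at chr13:52739771-52740070. Capitals mark the letters ACAAAG or ACAATG on either strand, a short form of the sequence that SOX-family proteins bind; on the opposite strand ACAAAG reads CTTTGT.
HAPLN1: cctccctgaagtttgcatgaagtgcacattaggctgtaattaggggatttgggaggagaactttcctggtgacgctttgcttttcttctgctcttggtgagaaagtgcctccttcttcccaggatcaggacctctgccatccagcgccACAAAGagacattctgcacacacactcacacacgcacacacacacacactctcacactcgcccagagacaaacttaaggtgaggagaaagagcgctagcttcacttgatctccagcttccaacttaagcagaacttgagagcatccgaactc
EPYC: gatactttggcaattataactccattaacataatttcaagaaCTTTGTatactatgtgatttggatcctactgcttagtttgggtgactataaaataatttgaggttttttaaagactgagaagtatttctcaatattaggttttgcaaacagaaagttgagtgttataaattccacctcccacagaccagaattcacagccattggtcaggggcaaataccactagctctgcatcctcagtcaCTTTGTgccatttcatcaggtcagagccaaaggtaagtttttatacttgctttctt
CNMD: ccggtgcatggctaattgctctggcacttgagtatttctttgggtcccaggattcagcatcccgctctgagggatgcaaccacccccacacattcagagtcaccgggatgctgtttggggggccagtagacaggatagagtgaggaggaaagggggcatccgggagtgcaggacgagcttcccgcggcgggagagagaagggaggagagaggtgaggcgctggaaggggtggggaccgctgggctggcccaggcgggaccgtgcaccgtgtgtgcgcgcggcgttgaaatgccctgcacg
HAPLN1 had 1 match, starting 102 bases before the gene start, and EPYC had 2, at 208 and 6 bases before it. CNMD, like ACAN and MATN4, had none in this window. Of 23 cartilage markers and leading genes looked up, 19 had a window and 5 of these held a match (26.3%), against 6725 of 27305 windows of all genes (24.6%). These letters were therefore about as common in all windows. Gene spans given further on are from GENCODE 29, which starts HAPLN1 farther upstream than the RefSeq start used for this window. A match describes the sequence only.

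The cartilage-rule cells made up 17.7% of kept GelNB-CH cells (17.2% to 18.3%) and 15.7% of kept Matrigel cells (15.04% to 16.45%), a ratio of 1.13. Matrigel cells were deeper, with medians of 8840 UMIs in GelNB-CH and 13385 in Matrigel cartilage-rule cells and of 3003 and 3926 detected genes. A minimum on absolute UMIs, as for the 3 rule genes, passes deep cells more easily. The upper limits on OC90, CDH19 and dividing cells pass shallow cells more easily. With every cell thinned to 5000 UMIs before the rule was applied, which dropped 1974 shallower cells from GelNB-CH and 422 from Matrigel, the shares were 16.8% (16.3% to 17.3%) and 12.7% (12.01% to 13.32%), a ratio of 1.33. Among unthinned cells of 8000 to 16000 UMIs the shares instead lay closer together than over all kept cells. Their values are given with the processing alternatives below. The size of the difference thus depended on how depth was handled. Before the limits on OC90, CDH19 and dividing cells, 9794 GelNB-CH and 3548 Matrigel cells had at least 3 UMIs of the rule genes. The OC90 limit touched 5291 and 1346 of them, the CDH19 limit 224 and 295, and the limit on dividing cells 1603 and 637. Most cells set aside by these limits thus carried OC90.

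Within the cartilage-rule cells, the summed UMIs of the 3 genes had a median of 13 in GelNB-CH and 12 in Matrigel, with 10th to 90th percentiles of 3 to 54 and 3 to 68. UMIs of all 3 genes were present in 44.7% of GelNB-CH and 34.5% of Matrigel members, and 850 and 489 members had UMIs of a single one. The cells therefore ran from the bare threshold to a strong programme, and other cartilage genes followed this range. COL2A1, the type II collagen gene (chromosome 12, 47972965 to 48004554, minus strand, GRCh38), stood at 591 CPM (counts summed over cells and scaled to a total of 1000000) in GelNB-CH cells with 2 rule UMIs, at 760 CPM with 3 and at 6928 CPM with 20 or more. In Matrigel cells the same bins gave 536, 729 and 6724 CPM. No step was seen at the threshold for this gene.

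MATN1, a matrilin restricted to cartilage (chromosome 1, 30711277 to 30723587, minus strand), had 6.16 CPM in GelNB-CH cells with 2 rule UMIs, 19.02 CPM with 3 and 1277 CPM with 20 or more. The Matrigel values were 4.16, 5.71 and 1209 CPM. HAPLN1 (chromosome 5, 83637805 to 83721613, minus strand) had 31.8, 57.6 and 1594 CPM in GelNB-CH and 25.8, 18.3 and 1150 CPM in Matrigel in these bins. COL1A1, the type I collagen of bone, skin and perichondrium, ran the other way at the top, with 1021 CPM at 3 UMIs and 333 CPM at 20 or more in GelNB-CH and 1519 and 726 CPM in Matrigel. SOX2, the gene of the sorted reporter, had 24.0 CPM in GelNB-CH cells without rule UMIs and 6.65 CPM in those with 20 or more, and 17.7 and 4.54 CPM in Matrigel. Over all cartilage-rule cells SOX2 was at 12.3 CPM in GelNB-CH, against 11.7 CPM in Matrigel, and it was lowest in the bin with the most rule UMIs in both libraries. These values describe the threshold and carry no test.

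**Figure D1:**
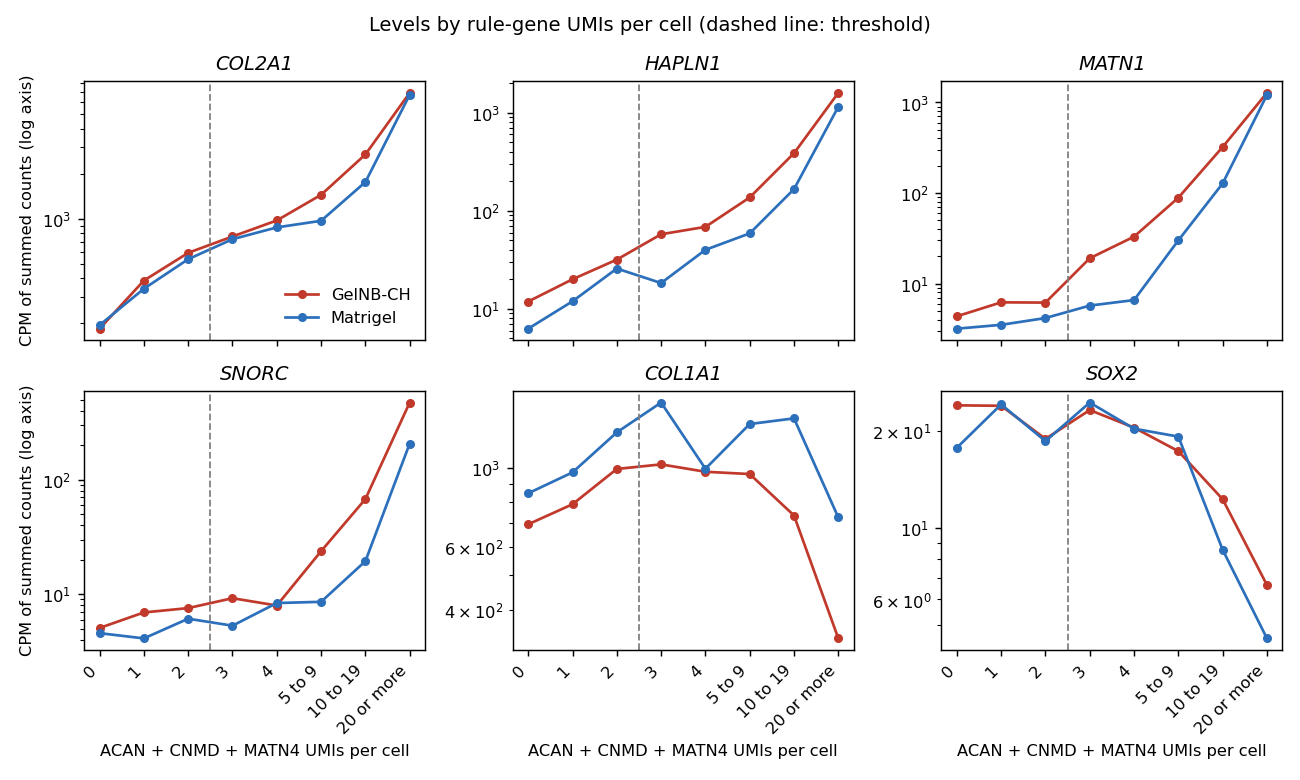
Levels of 6 genes (CPM of summed counts, log axis) by the number of ACAN, CNMD and MATN4 UMIs per cell, in GelNB-CH (red) and Matrigel (blue) cells that met the other limits; the dashed line is the threshold of 3. COL2A1, HAPLN1, MATN1 and SNORC were highest at 20 or more UMIs in both libraries, where COL1A1 and SOX2 were lowest.

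The label was checked against marker lists, of which the cartilage one holds the 3 rule genes and 12 others. Each of the 12 others was at 10 CPM or more in cartilage-rule cells of both libraries, and they summed to 12111 CPM in GelNB-CH, against 9686 CPM in Matrigel. In mesenchyme comparison cells, which had at least 3 UMIs of TWIST1, PRRX1 and PDGFRA and none of the rule genes, the 12 summed to 1021 and 1115 CPM. In cells with at least 5 OC90 UMIs they summed to 2692 and 2104 CPM, and to 1605 and 1766 CPM in those without rule genes. The sums describe the cells and are no test of the label. Of the other lists, 9 of 10 mesenchyme markers reached 10 CPM in both libraries, 5 of 14 otic epithelium markers in GelNB-CH, against 7 in Matrigel, 5 and 6 of 10 Schwann or satellite glia markers, and 6 and 6 of 10 neuron markers. In each library 4 of 8 CNS progenitor markers, summing to 328 and 261 CPM, 2 of 8 keratinocyte markers and 2 of 6 blood and immune markers did so too. None of 8 melanocyte, 9 skeletal muscle, 6 endothelium or 6 bone markers did.

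Cells were also thinned to 5000 UMIs each, after the rule, to compare how many had a UMI at equal depth. COL2A1 was detected in 96.1% of GelNB-CH and in 94.1% of Matrigel members, but also in 48.3% and 47.7% of mesenchyme comparison cells. It was detected in 51.4% and 48.7% of cells with at least 3 CDH19 UMIs. In cells with at least 5 OC90 UMIs the shares were 86.1% and 90.3%, and 82.4% and 88.1% in those without rule genes. Whether UMIs outside the members are expression or background was not tested. A COL2A1 UMI alone does not mark a cartilage cell here. MATN1 separated the cells more sharply. It was detected in 42.4% of GelNB-CH and in 25.6% of Matrigel members, against 1.84% and 1.69% of mesenchyme comparison cells and 1.70% and 1.33% of the CDH19 cells. HAPLN1 gave 56.6% and 40.9% of members, against 7.47% and 5.51% of mesenchyme comparison cells. Of the 12 markers not used by the rule, at least 6 were detected in 66.3% of GelNB-CH and in 54.5% of Matrigel members. The rule chose the cells by genes of the same programme, so these shares are no test of the label. The label describes the summed cells and not each single cell.

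Clustering of the cartilage-rule cells alone gave 11 subgroups, numbered by size. Subgroup 2, with 863 GelNB-CH and 250 Matrigel cells, and subgroup 7, with 253 and 45, were cartilage-like by the markers. Subgroup 2 was led by ITIH6, SCIN, MATN1, SPSB4, S100A1 and SNORC, and COL2A1 stood there at 8704 CPM in GelNB-CH, against 11090 CPM in Matrigel. Subgroup 7 was led by UCMA, SNORC, S100A1, C1QTNF3, MATN1 and HAPLN1. UCMA, a secreted protein of the upper growth plate zone, was at 202 CPM in GelNB-CH, against 759 CPM in Matrigel there. After thinning, MATN1 was detected in 93.5% of GelNB-CH and in 97.1% of Matrigel cells of subgroup 2, and COL1A1 in 9.39% and 9.92%. Together these subgroups held the densest cartilage programme, and type I collagen was sparse in them.

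Subgroup 1, with 1025 GelNB-CH and 535 Matrigel cells, combined cartilage and fibroblast genes. It was led by OGN, ITGBL1, THBS2, GDF10, ASPN and SLC40A1, of which OGN and ASPN encode small leucine-rich proteins of connective tissue. COL2A1 was at 2168 CPM in GelNB-CH, against 2249 CPM in Matrigel subgroup 1 cells, MATN4 at 1098 and 1147 CPM, COL1A1 at 1364 and 2015 CPM and MATN1 at only 117 and 71.1 CPM. Subgroup 5 (286 and 202 cells), led by IGF1, INHBA, NAV3, COL3A1, COL24A1 and CSRP2, had the most COL1A1, at 2465 and 2794 CPM. Subgroup 4 (279 and 211 cells) was led by SORCS3, DLX6-AS1, RALYL, SPOCK3, GRIA4 and RERG. These subgroups were not named.

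Other subgroups carried markers of other cell types. Subgroup 3 (398 GelNB-CH and 232 Matrigel cells) was led by CALB1, MYBPC1 and UGT2B7. It had 12 of 14 otic epithelium markers at 10 CPM or more in both libraries, and the 14 summed to 781 and 800 CPM. Over all cartilage-rule cells they summed to 353 and 370 CPM. In cells with at least 5 OC90 UMIs and no rule genes they summed to 5607 and 4839 CPM. OC90, which the rule limited, is 1 of the 14. Subgroup 6 (276 and 55 cells), led by ELAVL4, ELAVL3, THSD7B, STMN4, STMN2 and NEUROD1, had 4 neuron markers and no cartilage marker among its 10 leading genes, together with COL2A1 at 4313 and 4046 CPM. Its cells were the deepest of the 11 subgroups, with medians of 17678 and 22548 UMIs, and the doublet caller Scrublet marked 80.8% and 41.8% of them, against 15.1% and 3.57% of all cartilage-rule cells. Subgroup 9 (81 and 60 cells), led by FOXD3 and HSPB2, had 10 of 10 glia markers at 10 CPM or more, and Scrublet marked 54.3% and 20.0% of it. Subgroup 8 (240 and 45 cells), led by IFITM1, RFX4 and LPL, had glia markers summing to 3272 and 3604 CPM. The remaining subgroups were small, subgroup 10 with 38 and 16 cells of low depth, and subgroup 11 with 45 cells and 1, led by S100P, GDF15, TRIB3 and ATF5, of which TRIB3 and ATF5 belong to the integrated stress response. Marked cells were kept in the main values, and the part of doublets in any result was not tested beyond leaving the marked cells out.

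**Figure D2:**
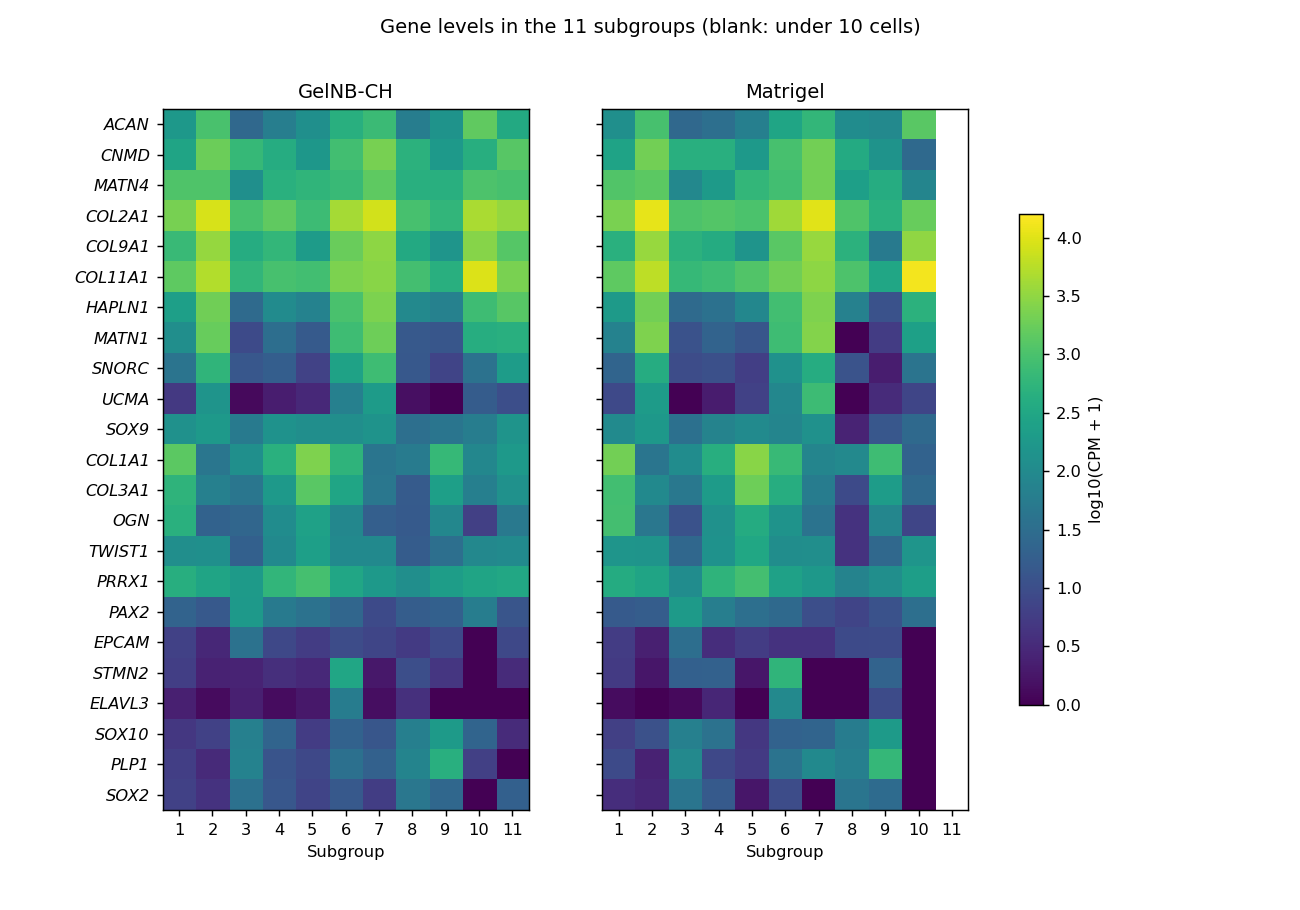
Levels of 23 genes (log10 of CPM plus 1) in the 11 subgroups of cartilage-rule cells, GelNB-CH left and Matrigel right, with a subgroup of under 10 cells left blank. The brightest COL2A1, HAPLN1 and MATN1 cells of the map among the larger subgroups are those of subgroups 2 and 7, COL1A1 and COL3A1 are brightest in subgroups 1 and 5, and STMN2 and ELAVL3 stand out in subgroup 6.

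The make-up of the rule's cells differed between the libraries. Subgroup 2 was 22.8% of GelNB-CH and 15.1% of Matrigel members, and subgroup 7 was 6.69% and 2.72%. Subgroup 1 was 27.1% and 32.4%, subgroup 4 was 7.37% and 12.8%, and subgroup 5 was 7.56% and 12.2%. Subgroup 3, with otic epithelium markers, was 10.5% and 14.0%, subgroup 6, with neuron markers, 7.29% and 3.33%, and subgroup 8, with glia markers, 6.34% and 2.72%. Both dense cartilage subgroups were thus larger shares in GelNB-CH, but shares of subgroups with markers of other cell types differed as well. Subgroup sizes were set by the same genes that are compared below, and subgroups 6 and 9 led with genes of other cell types, so the libraries are compared over all cartilage-rule cells as a description and within subgroups 1 and 2 by number.

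Set against mesenchyme comparison cells of the same library (2143 in GelNB-CH and 907 in Matrigel), the cartilage-rule cells were high in a compact set of matrix genes. Genes were called apart by a 2-fold or larger ratio with no less than 10 CPM on the higher side. Of 9531 genes, 215 were higher in cartilage-rule cells in both libraries (2.26%) and 150 were lower in both (1.57%). The rule chose the cells by 3 genes of this programme, so these values describe the cells and support no call.

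MATN1 had the largest ratio, at 658 CPM in GelNB-CH, against 528 CPM in Matrigel cartilage-rule cells, against 3.69 and 2.94 CPM in mesenchyme comparison cells, 179-fold in each library. UCMA was at 58.5 and 60.8 CPM, against 0.550 and 0.697 CPM in mesenchyme comparison cells, which rested on 10 and 9 counts. HAPLN1 was at 829 and 521 CPM, against 16.8 and 12.4 CPM. MATN1 and UCMA were under 4 CPM in mesenchyme comparison cells, and HAPLN1 was low but above 10 CPM.

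The collagens followed. COL11A2, a chain of type XI collagen, was 44.99-fold higher than in mesenchyme comparison cells in GelNB-CH (38.7 to 52.7) and 35.3-fold in Matrigel (29.2 to 43.0). COL9A1 was 19.4-fold and 21.5-fold higher, COL9A3 12.3-fold and 7.98-fold, and COL2A1 20.2-fold and 16.7-fold. COL11A1 was higher by 6.00-fold and 3.85-fold. Of 13 cartilage collagens listed, 7 had ratios of 2 or more in each library and 1, COL6A3, was at least 2-fold lower. These counts also required 10 CPM or more on the higher side. By the same count, 337 of the 12068 genes at 5 CPM or more in GelNB-CH were at least 2-fold higher. In Matrigel 270 of 12327 were. At least 2-fold lower, counted in the same way, were 329 and 250. The median log2 ratio of the collagens was 2.13 in GelNB-CH and 1.90 in Matrigel, beside −0.08 and −0.05 over all genes.

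Small matrix and chondrocyte proteins made up most of the other leading genes. S100A1, a calcium-binding protein, was 53.9-fold and 38.1-fold higher, and SNORC, a membrane proteoglycan of chondrocytes, 55.4-fold and 24.6-fold. C1QTNF3, a secreted protein of the growth plate, was 27.3-fold and 27.2-fold higher, PRELP 29.2-fold and 23.8-fold, and SCRG1, named for stimulating chondrogenesis, 9.19-fold and 8.52-fold. EPYC ran the other way from SNORC, with 12.3-fold in GelNB-CH and 26.6-fold in Matrigel, and its level in mesenchyme comparison cells was 89.7 CPM in GelNB-CH, against 29.1 CPM in Matrigel. SERPINA3, a protease inhibitor, and SORBS2, an adhesion scaffold, were also among the 15 largest.

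The transcription factors were less far apart than the matrix genes. SOX9 stood at 126 CPM in GelNB-CH, against 92.9 CPM in Matrigel cartilage-rule cells, against 60.7 and 37.3 CPM in mesenchyme comparison cells, 2.07-fold and 2.49-fold. SOX5 was 2.92-fold and 2.74-fold higher and SOX6 2.10-fold and 2.503-fold. SOX8, a relative of SOX9, was 6.28-fold and 6.499-fold higher at 27.3 and 27.2 CPM. PAX1, PAX9 and NKX3-2, factors of the axial skeleton, were each under 2 CPM. Of the 13 factors listed, 9 were measured at 5 CPM or more. Ratios were 2 or more, with 10 CPM or more on the higher side, for 6 of these in the GelNB-CH library and for 5 in the Matrigel one. Over all genes at 5 CPM or more, 337 of 12068 and 270 of 12327 were that high by the same count.

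Among the genes lower in cartilage-rule cells, CRABP1, a retinoic acid-binding protein, was at 358 CPM in GelNB-CH, against 583 CPM in Matrigel cartilage-rule cells, against 1869 and 1896 CPM in mesenchyme comparison cells. COL3A1 was at 299 and 552 CPM, against 924 and 1646 CPM. NTNG1, NRP1, GAP43, SYT1 and NRG3, known from neurite growth and synapses, were also among the 15 lowest ratios, as were EDNRA, an endothelin receptor, and CYP1B1. GAP43 and SYT1 are on the neuron marker list, of which 8 of 10 reached 10 CPM in mesenchyme comparison cells of each library. The 10 summed to 505 and 373 CPM there, against 271 and 209 CPM in cartilage-rule cells. The part of neuronal RNA in these ratios was not tested. VCAN, the large proteoglycan that precedes aggrecan in condensing mesenchyme, was at 412 and 482 CPM, against 1261 and 965 CPM.

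**Figure D3:**
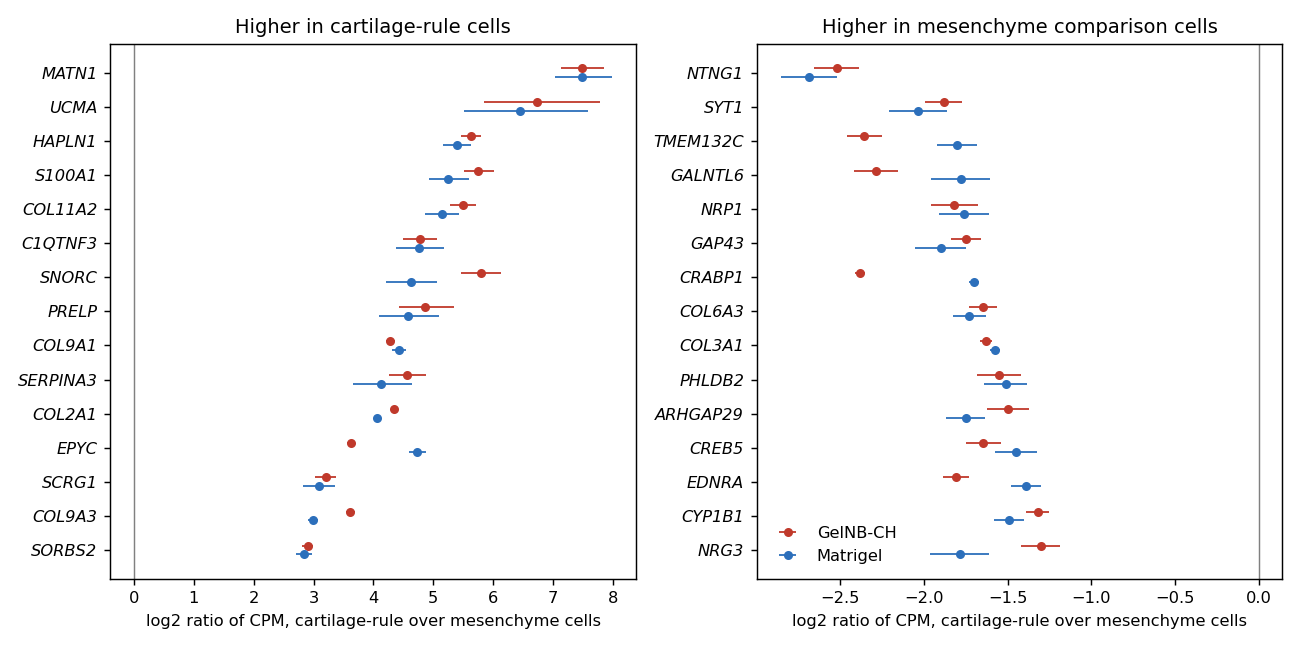
Log2 ratio of CPM in cartilage-rule cells over mesenchyme comparison cells, within GelNB-CH (red) and within Matrigel (blue), with exact 95% counting intervals as bars, for the 15 genes with the largest ratio in each direction. The points of the libraries lie close together for most genes, and MATN1 and UCMA lie farthest right.

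Several genes of later cartilage were nearly silent, but not all. Of 14 hypertrophic and bone genes listed, 8 were at 5 CPM or more in cartilage-rule cells of either library. COL10A1, the collagen of hypertrophic chondrocytes, was at 1.25 CPM in GelNB-CH, against 1.78 CPM in Matrigel cartilage-rule cells. IHH, the signal of prehypertrophic cells, was at 0.731 and 0.248 CPM, and SP7, a bone-forming factor, at 0.835 and 0.703 CPM. IBSP, a bone sialoprotein, had 0 counts in both libraries. ALPL, the alkaline phosphatase of mineralising matrix, was at 1.54 and 1.12 CPM. COMP and CILP, proteins of mature cartilage, were under 1 CPM in both. GDF5, a joint growth factor, was at 7.86 and 8.97 CPM, above the 2.15 and 3.87 CPM of mesenchyme comparison cells.

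Genes of position gave a limited picture. Among genes of the otic capsule and the mesenchyme around it, EYA1 was at 98.7 CPM in GelNB-CH, against 119 CPM in Matrigel, and TBX1 at 21.8 and 22.4 CPM. POU3F4 and TBX18, factors of periotic mesenchyme, were at 0.835 and 0.0413 CPM and at 1.12 and 0.455 CPM. OTOR, an otoraplin gene of cochlear mesenchyme, was at 22.3 and 11.1 CPM. HOXA2, HAND2 and LHX8, factors that specify pharyngeal arches, and HOXA3 had 0 counts in cartilage-rule cells of both libraries, and HOXB2 was at 0.235 and 0.248 CPM. DLX2 was at 18.3 and 19.1 CPM, MSX1 at 28.2 and 46.9 CPM and MSX2 at 42.9 and 52.6 CPM.

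GelNB-CH cartilage-rule cells were then set against Matrigel ones. Of 9742 genes, 43 were apart with the higher level in GelNB-CH (0.441%) and 57 with the lower level there (0.585%). Over the 12093 genes at 5 CPM or more, 4962 were higher and 7131 lower in GelNB-CH, with a median log2 ratio of CPM plus 1 of −0.05, and the counts for gene lists below are read against these. In subgroup 1, 5143 were higher and 6617 lower of 11760, and in subgroup 2, 5797 were higher and 5643 lower of 11440. Scaling by TMM factors added 0.11 to every log2 ratio and median-of-ratios factors 0.12, and with median-of-ratios scaling 80 genes were higher and 37 lower. With Scrublet-marked cells left out, 28 were higher and 89 lower. Within subgroup 1, 108 of 9482 genes (1.14%) were higher and 89 (0.939%) lower in GelNB-CH, and within subgroup 2, 114 of 9078 (1.26%) were higher and 159 (1.75%) lower. With 1 library a hydrogel, none of these is a call of changed genes.

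Over all cartilage-rule cells several matrix genes that the rule did not use were slightly higher in GelNB-CH. COL2A1 was at 4056 CPM in GelNB-CH, against 3449 CPM in Matrigel (ratio 1.18, 1.17 to 1.19), COL9A1 at 1569 and 1049 CPM (1.496, 1.47 to 1.52) and HAPLN1 at 829 and 521 CPM (1.59, 1.56 to 1.62). MATN1 had a ratio of 1.25. The rule genes themselves had ratios of 1.65 for ACAN, 1.34 for CNMD and 1.03 for MATN4, given as a description only, since these genes chose the cells. The direction was not the same within the dense cartilage subgroup. In subgroup 2, COL2A1 was at 8704 CPM in GelNB-CH, against 11090 CPM in Matrigel (ratio 0.785, 0.776 to 0.794), and MATN1 at 1665 and 2412 CPM (0.690, 0.673 to 0.709). MGP, which blocks calcification, was at 1734 and 3173 CPM there (0.547, 0.534 to 0.560). COL9A1 and HAPLN1 were near even in subgroup 2, at ratios of 0.989 and 0.948. The pooled ratios above 1 stood beside a larger share of subgroups 2 and 7 in GelNB-CH, and the part of that share in them was not tested.

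In subgroup 1, COL2A1 had a ratio of 0.964 (0.945 to 0.984), whereas COL9A1 had 1.54 (1.48 to 1.60), at 709 CPM in GelNB-CH, against 461 CPM in Matrigel, and MATN1 had 1.65 (1.48 to 1.83). Of 13 listed collagens, 7 were higher and 6 lower in GelNB-CH over all cartilage-rule cells, 3 and 10 in subgroup 1, and 1 and 12 in subgroup 2, with medians of 0.07, −0.05 and −0.20. For link protein and other members of the aggrecan complex with the enzymes that build their sugar chains, ACAN left out, 10 of 11 were higher over all cells (median 0.15), 6 of 11 in subgroup 1 (0.10) and 3 of 11 in subgroup 2 (−0.08, less than the 0.08 by which median-of-ratios scaling moved that subgroup). UGDH, which makes the sugar donor for these chains, had ratios of 1.35 and 1.37 in subgroups 1 and 2. The matrilin and leucine-rich list without MATN4 gave 0.03, 0.04 and −0.20. Of all genes, 4962 of 12093 were higher over all cells, 5143 of 11760 in subgroup 1 and 5797 of 11440 in subgroup 2.

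**Figure D4:**
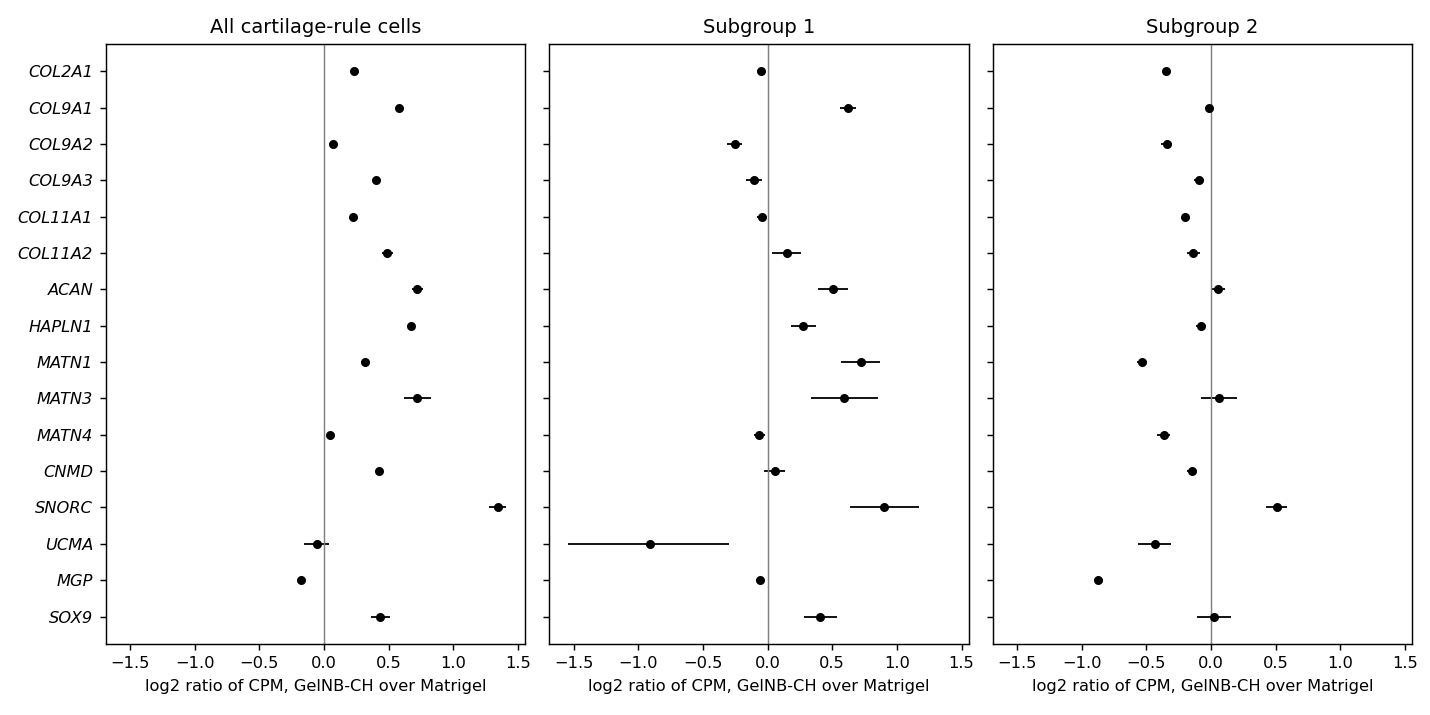
Log2 ratio of CPM, GelNB-CH over Matrigel, for 16 cartilage genes in all cartilage-rule cells, in subgroup 1 and in subgroup 2, with exact 95% counting intervals as bars. COL2A1 and MATN1 lie right of 0 over all cells and left of it in subgroup 2, and SNORC lies right of 0 in each panel.

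SNORC was the matrix-related gene with the largest ratio, at 232 CPM in GelNB-CH, against 91.5 CPM in Matrigel (2.53, 2.42 to 2.66). Within subgroups it was smaller, 1.87 in subgroup 1 and 1.42 in subgroup 2, whereas in members of 8000 to 16000 UMIs its log2 ratio was 2.35, beside 1.33 over all members. SCIN, an actin-severing protein, was at 58.5 and 16.5 CPM (3.54, 3.18 to 3.95) and had a ratio of 2 or more in each of the 5 subgroups with at least 10 cells a library where it reached 10 CPM. Its log2 ratio was 2.86 in members of 8000 to 16000 UMIs and 1.08 in subgroups 2 and 7 alone, beside 1.76 over all members. RBP4, the retinol carrier, was at 21.8 and 6.86 CPM (3.18, 2.69 to 3.78) and likewise in 5 of 5. Both were under 2 CPM in mesenchyme comparison cells of either library. STRA6, the membrane receptor for RBP4, ran the other way, at 8.22 CPM in GelNB-CH, against 20.0 CPM in Matrigel.

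Some leading genes differed in the same way outside the cartilage-rule cells. NPW, which encodes neuropeptide W, was at 60.1 CPM in GelNB-CH, against 19.2 CPM in Matrigel (3.13, 2.83 to 3.47), with a ratio of 2 or more in each of the 10 subgroups with at least 10 cells a library, of which subgroup 10 had 0 counts in its 16 Matrigel cells. In mesenchyme comparison cells it was at 47.3 and 17.7 CPM. PHF5A, a splicing factor subunit, was at 39.1 and 16.7 CPM, and at 43.4 and 18.2 CPM in mesenchyme comparison cells. SDF2L1, a chaperone cofactor of the endoplasmic reticulum, was at 129 and 57.1 CPM, and at 116 and 44.6 CPM in mesenchyme comparison cells. FKBP2, a protein-folding isomerase, was lower in GelNB-CH, at 9.55 and 24.3 CPM, and at 8.64 and 22.8 CPM in mesenchyme comparison cells. For these genes no difference between cartilage-rule and mesenchyme cells in the ratio was tested.

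DCC, a netrin receptor, had the largest ratio over all cartilage-rule cells, at 40.9 CPM in GelNB-CH, against 9.13 CPM in Matrigel (4.48, 3.89 to 5.18), but it was at least 2-fold higher in only 2 of the 7 subgroups where it reached 10 CPM and lower in 1, and 84 of its 269 counts in subgroup 1 came from 1 cell. Its log2 ratio of 2.05 was 0.57 with Scrublet-marked cells left out, under 2-fold, 0.53 in subgroups 2 and 7 alone and 1.28 without subgroups 3, 6, 8 and 9. The other genes in this group of 12 were FAM155A, DIAPH3, CXCL14, SERPINA3 and GPC5, at ratios of 2.91, 2.57, 2.44, 2.35 and 2.28. Without Scrublet-marked cells CXCL14 and GPC5 were under 2-fold, with log2 ratios of 0.47 and 0.89, and 1 GelNB-CH cell held 250 of 1440 counts of CXCL14 and 1 held 204 of 1422 counts of GPC5. SERPINA3 had a log2 ratio of 1.81 in members of 8000 to 16000 UMIs, beside 1.22 over all. CXCL14, a chemokine, was uneven, with a ratio of 22.6 in subgroup 4 and 0.458 in subgroup 2.

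Among the genes higher in Matrigel, NPR3, the clearance receptor of natriuretic peptides, was at 12.997 CPM in GelNB-CH, against 45.8 CPM in Matrigel (3.53-fold higher in Matrigel, 3.17 to 3.93). Subgroup 9, with all 10 glia markers, held 78 of its 498 counts in GelNB-CH and 444 of 1109 in Matrigel, and in subgroup 1 it was at 4.41 and 6.21 CPM. It was at least 2-fold higher in Matrigel in 6 of the 7 subgroups where it reached 10 CPM, but its log2 ratio of −1.74 was −0.97 without subgroups 3, 6, 8 and 9 and −0.31 in subgroups 2 and 7 alone. OGN was at 162 and 363 CPM (2.24-fold, 2.16 to 2.31), with 1.91-fold in subgroup 1 and 2.22-fold in subgroup 2, but of the 9 subgroups with at least 10 cells a library where it reached 10 CPM it was 2-fold or more higher in GelNB-CH in 2 and in Matrigel in 2. In mesenchyme comparison cells it was at 175 and 471 CPM. IGF1, at 11.01 and 26.5 CPM, leads subgroup 5, and SORCS3 and RERG lead subgroup 4, both of which were larger shares of the Matrigel members. In subgroup 2 alone, IGF1 was at 1.53 and 1.56 CPM. The rest of the 12 were NECTIN3-AS1, STRA6, SPRY1, MROH9, SCUBE1 and FREM1. Whether counting used strand is not stated in the sources used here, so reads of antisense genes such as NECTIN3-AS1 and FLNC-AS1 may include those of their partners.

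Growth plate signals and their receptors were lower in GelNB-CH as a list. Of 19 measured members, 18 were lower and 1, FGFR3, was higher, beside 7131 of 12093 genes lower in all, with a median of −0.41 over all cartilage-rule cells, −0.33 in subgroup 1 and −0.18 in subgroup 2. NPPC, the C-type natriuretic peptide that promotes growth plate elongation, was at 3.71 CPM in GelNB-CH, against 12.1 CPM in Matrigel. In subgroup 1 it was at 2.00 and 21.1 CPM (10.6-fold higher in Matrigel, 6.55 to 18.0), with 19 counts in 17 GelNB-CH cells and 163 in 89 Matrigel cells. Its receptor NPR2 was at 5.61 and 6.98 CPM. PTHLH, which keeps chondrocytes from hypertrophy, was at 3.37 and 7.23 CPM, and its receptor PTH1R at 42.7 and 59.2 CPM. GLI3, a hedgehog pathway repressor, was at 91.6 and 139 CPM, while PTCH1, a direct hedgehog target, was at 23.8 and 24.1 CPM.

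Low-oxygen and glycolysis genes were also lower in GelNB-CH cartilage-rule cells, in 15 of 17 members beside 7131 of 12093 genes, with medians of −0.58 over all cells, −0.43 in subgroup 1 and −0.26 in subgroup 2. CA9, a carbonic anhydrase, was at 2.79 CPM in GelNB-CH, against 15.2 CPM in Matrigel, a ratio of 0.184 (0.147 to 0.228), and at 1.86 and 10.1 CPM in subgroup 2. BNIP3, a mitophagy receptor, was at 88.0 and 188 CPM (0.469, 0.448 to 0.490), with 0.406 in subgroup 1 and 0.481 in subgroup 2. VEGFA, which draws vessels into cartilage, was at 24.8 and 47.0 CPM, with 0.523 and 0.474. GAPDH was nearly even at a ratio of 1.03. P4HA1 and P4HA2, prolyl hydroxylases that stabilise collagen, were at 233 and 311 CPM and at 29.3 and 40.0 CPM.

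Chaperone genes went the other way. Of 10 heat shock chaperones, 9 were higher in GelNB-CH over all cartilage-rule cells, and 7 each in subgroups 1 and 2. Over all genes these counts were 4962 of 12093, 5143 of 11760 and 5797 of 11440. The medians of the list were 0.43, 0.41 and 0.44. HSP90AA1 was at 1015 CPM in GelNB-CH, against 607 CPM in Matrigel (1.67, 1.64 to 1.70), HSPA8 at 358 and 216 CPM (1.66, 1.61 to 1.71) and HSPE1 at 323 and 214 CPM. HSPA1B, an inducible member, was lower, at 33.9 and 39.3 CPM. Genes of the unfolded protein response and of collagen secretion were higher in 22 of 28, beside 4962 of 12093 genes in all. Their medians were 0.25, 0.14 and 0.08. Besides SDF2L1, HERPUD1 was at 212 and 135 CPM (1.57, 1.51 to 1.64) and kept 1.62 and 1.61 in subgroups 1 and 2, and SERPINH1, a collagen chaperone, was at 348 and 274 CPM.

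Targets of YAP, a factor that responds to stretch and stiffness, were lower in GelNB-CH in 9 of 9 measured members over all cartilage-rule cells. In subgroup 2 they were lower in 8 of 8. Over all genes, 7131 of 12093 and 5643 of 11440 were lower. The medians of the list were −0.36 over all cells, −0.50 in subgroup 1 and −0.46 in subgroup 2. CCN2, a matricellular protein of growing cartilage, was at 287 CPM in GelNB-CH, against 450 CPM in Matrigel (0.638, 0.621 to 0.655), CCN1 at 221 and 346 CPM, and F3 at 7.80 and 16.3 CPM. Of 13 immediate early genes, 11 were lower over all cells, 12 in subgroup 1 and 8 in subgroup 2, beside 7131 of 12093, 6617 of 11760 and 5643 of 11440 genes in all. ZFP36, which destabilises cytokine transcripts, had ratios of 0.575, 0.498 and 0.483. FOS was at 842 and 859 CPM over all cells.

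Perichondrium and fibroblast genes were lower in GelNB-CH in 12 of 15, beside 7131 of 12093 genes in all, with medians of −0.37 over all cells, −0.33 in subgroup 1 and −0.13 in subgroup 2. COL1A1 was at 642 CPM in GelNB-CH, against 1085 CPM in Matrigel (0.591, 0.581 to 0.602), and at 1364 and 2015 CPM in subgroup 1, but at 43.8 and 42.1 CPM in subgroup 2. POSTN and FN1, which encode periostin and fibronectin, and THY1 were the 3 that were higher, at 141 and 116 CPM, at 216 and 179 CPM and at 71.5 and 49.1 CPM. POSTN reached a ratio of 1.86 in subgroup 1 (1.71 to 2.03). Of 15 basement membrane genes, 11 were lower, beside 7131 of 12093 genes in all, among them COL18A1 at 41.6 and 69.6 CPM, while LAMA4 was higher at 395 and 300 CPM.

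**Figure D5:**
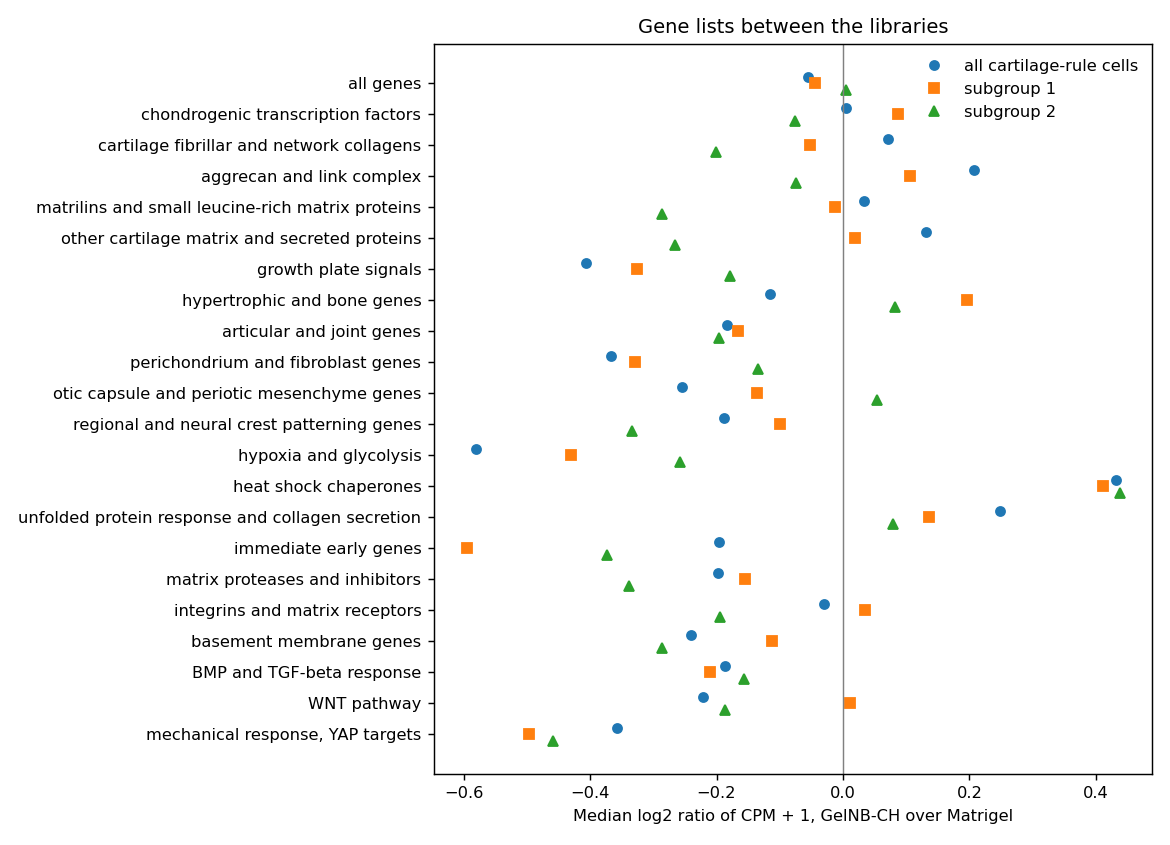
Median log2 ratio of CPM plus 1, GelNB-CH over Matrigel, for all genes and 21 gene lists, in all cartilage-rule cells (circles), subgroup 1 (squares) and subgroup 2 (triangles), with the rule genes kept in the aggrecan, matrilin and other matrix lists. The hypoxia and YAP target lists lie left of 0 in all 3, at −0.58 to −0.26 and −0.50 to −0.36, and the heat shock list lies right of 0, at 0.41 to 0.44.

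Within subgroup 1, PRG4, the lubricin of joint surfaces, was at 2.21 CPM in GelNB-CH, against 20.6 CPM in Matrigel (9.33-fold higher in Matrigel, 5.90 to 15.5), with 39 of its 159 Matrigel counts in 1 cell. In mesenchyme comparison cells it was at 7.98 and 54.9 CPM. PCP4, DUOX1, TNFRSF21 and CEBPD were also higher in Matrigel there, by 3.57-fold, 3.41-fold, 3.02-fold and 2.33-fold. TIMP1, an inhibitor of matrix proteases, was higher in GelNB-CH, at 547 and 250 CPM (2.19, 2.08 to 2.31), as were ERBB4 at 72.5 and 15.01 CPM and CADM2 at 68.8 and 18.0 CPM. S100A8 met the naming rule in subgroup 1 at 21.6 CPM in GelNB-CH and 0 counts in Matrigel, but 205 of its 206 counts came from 1 cell.

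Within subgroup 2, PLAUR, the urokinase receptor, was higher in Matrigel, at 21.0 CPM in GelNB-CH, against 71.1 CPM in Matrigel (3.39-fold, 2.81 to 4.10). ANGPTL7, NDUFA4L2, PPARG, KRT19 and DUSP2 were higher in Matrigel by 2.69-fold to 3.61-fold. In GelNB-CH, MCM4 and MCM3, subunits of the replicative helicase, were at 22.4 and 5.45 CPM (4.11, 2.62 to 6.78) and at 31.5 and 9.35 CPM (3.37, 2.38 to 4.90), and CHEK1, a replication checkpoint kinase, at 21.1 and 5.97 CPM. The rule removed cells with 3 or more UMIs of MKI67, TOP2A and UBE2C but set no limit on these replication genes. Shallow cells stay under such a limit more easily, and subgroup 2 medians were 10060 UMIs in GelNB-CH and 15239 in Matrigel. The part of this in the ratios of replication genes was not tested. PENK, which encodes proenkephalin, was at 50.1 and 15.6 CPM (3.21, 2.45 to 4.28). MMP13, the collagenase of late cartilage, was at 10.2 and 2.34 CPM (4.35, 2.19 to 9.81), in cells where COL10A1 was at 0.874 and 1.30 CPM.

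The libraries shared 78 barcodes, a small part of 21743 GelNB-CH and 10912 Matrigel barcodes, and held 247006223 and 178672097 UMIs. Scrublet marked 20.0% of kept GelNB-CH and 6.91% of kept Matrigel cells. The median share of mitochondrial UMIs in cartilage-rule cells was 2.61% and 2.30%. Depth, doublet share and hydrogel all differ between the libraries and cannot be told apart.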

How the data were processed

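The deposited tables hold raw UMI counts per gene and cell barcode, which the authors made from 10x 3′ libraries with Cell Ranger, version 7.1.0 per the file headers and 4.0.0 per the labels' protocols. STAR and GRCh38 are named in the submitters' processing notes. No source used here states whether counting used strand. The members and all gene lists were chosen with earlier results of these data known.

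Cells and comparison cells were taken by the rules in the report. Counts were summed per library and cell set and scaled to CPM, with no term for gene length in 3′ data. Ratios carry exact conditional binomial intervals and shares exact Clopper-Pearson intervals, at 95%, for counting error only. List medians use log2(CPM + 1) of genes at 5 CPM or more in either set. Genes were named by a rule, as the 12 with the largest ratio in each direction between libraries with a larger CPM of at least 20, the 15 against mesenchyme comparison cells at 50 CPM, and list members. MMP13, TIMP1, POSTN and GADD45G are among values chosen after they were seen. Subgroups came from Leiden clustering (scanpy 1.11.5, resolution 0.5, 2000 variable genes, 30 principal components, 15 neighbours). Doublets were marked with Scrublet per library, at an assumed 0.8% per 1000 cells, and kept in the main values. TMM factors (edgeR 4.0.16) and median-of-ratios factors (DESeq2 1.42.0) were scaling alternatives; no count model was fitted. The ratio intervals were tested on simulated summed counts that carried counting error only. The intervals assume this same error, so the test could not show their coverage where cells of a set differ. Total counts were 247006223 UMIs in GelNB-CH and 178672097 in Matrigel. Of 36601 gene IDs, 34616 matched GENCODE 29, which gave the gene spans. Results for some genes are not reported here.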

Additional observations from a re-analysis of the deposited data

Results flagged for a closer look

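GADD45G, a stress-inducible regulator of growth arrest, ran in opposite directions in the largest subgroups. In subgroup 1 it was at 26.3 CPM in GelNB-CH, against 13.6 CPM in Matrigel, a ratio of 1.93 (1.53 to 2.45, from 250 and 105 counts). In subgroup 2 it was at 24.5 CPM in GelNB-CH, against 42.1 CPM in Matrigel, a ratio of 0.582 (0.473 to 0.717, from 224 and 162 counts). It was 1 of 5737 genes at 20 CPM or more in both subgroups with ratios at least 1.5-fold from even and opposite in direction. The difference between the subgroups was not tested.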

How the results depend on the processing

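No paired analysis was possible because each hydrogel has 1 library, and leaving out a replicate was not possible for the same reason. Of 298 share, count and list values under the alternatives, 210 were counted as kept, 79 as moved and 9 as changed in sign. A list median was counted as changed in sign only where its main counting interval lay wholly above or wholly below even. Medians near even could therefore change sign without being among the 9. Of 326 single-gene values, 298 kept direction and size, 25 moved and 3 changed sign. The share of cartilage-rule cells in GelNB-CH and Matrigel was 20.6% and 18.4% at 2 rule UMIs, 14.5% and 12.7% at 5, 38.4% and 27.7% without the OC90 and CDH19 limits (ratio 1.39), 16.8% and 12.7% thinned (ratio 1.33), 20.3% and 19.6% among cells of 8000 to 16000 UMIs, and 18.4% and 13.9% with 3 rule UMIs per 10000 (ratio 1.32). Leaving out Scrublet-marked cells gave 18.8% in GelNB-CH. The order of the libraries was the same in each of these.

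Counts of genes apart, higher and lower in GelNB-CH, were 28 and 89 without Scrublet-marked cells, 80 and 37 with median-of-ratios factors, 212 and 586 at 1 CPM, 9 and 4 at 50 CPM, 113 and 133 in members of 8000 to 16000 UMIs, 100 and 166 in subgroups 2 and 7 alone, and 67 and 98 without subgroups 3, 6, 8 and 9. The higher count was 74 with TMM factors and 27 with the mean of per-cell CPM. Against mesenchyme comparison cells, 85 genes were higher and 40 lower at 50 CPM, and 290 were lower without subgroups 3, 6, 8 and 9. Clustering at resolution 0.25 gave 5 subgroups and at 1.0 gave 17.

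List medians moved as follows. Here the rule genes were kept in the aggrecan, matrilin and other matrix lists, whose main medians with them were 0.21, 0.03 and 0.13. The aggrecan and matrilin medians given earlier without rule genes are therefore not like values. Without Scrublet-marked cells, collagens were at 0.13, matrilins at 0.11 and other matrix proteins at 0.18. With TMM factors, collagens were at 0.18, matrilins 0.14, other matrix 0.24, hypertrophic genes −0.0074, perichondrium −0.26, otic capsule −0.15, immediate early −0.092, proteases −0.095 and BMP response −0.079. With median-of-ratios factors the same lists were at 0.19, 0.15, 0.25, 0.0017 (changed sign), −0.25, −0.14, −0.083, −0.087 and −0.070. In members of 8000 to 16000 UMIs, transcription factors were at 0.16, collagens 0.28, aggrecan genes 0.64, other matrix 0.44, articular genes 0.050 (changed sign), perichondrium −0.51, otic capsule −0.37, unfolded protein response 0.43, immediate early −0.10, BMP response −0.29 and WNT −0.51. In subgroups 2 and 7 alone, an alternative chosen after seeing the data like the one without subgroups 3, 6, 8 and 9, signs changed for collagens (−0.24), aggrecan genes (−0.096), other matrix (−0.22), hypertrophic (0.034), articular (0.079) and otic capsule genes (0.13), and for NECTIN3-AS1 (0.071), SORCS3 (0.10) and FREM1 (0.11). There matrilins were at −0.21 (also a change of sign, not counted among the 9), growth plate −0.22, perichondrium −0.21, hypoxia −0.32, unfolded protein response 0.078, immediate early −0.36 and integrins −0.23. Without subgroups 3, 6, 8 and 9, collagens were at 0.026 and other matrix at 0.036. Collagens were at 0.039 with the mean of per-cell CPM, other matrix at 0.066 in members with at least 5 rule UMIs, hypertrophic genes at 0.085 (changed sign) with no minimum CPM, and hypoxia at −0.40 with a pseudocount of 5. The causes of these shifts were not tested. Subgroup 2 held 250 Matrigel cells, which limits its precision.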

Other observations

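Receptors, signalling responses and regional genes gave smaller list values in cartilage-rule cells. Of 15 BMP and TGF-beta response genes, 12 were lower in GelNB-CH, beside 7131 of 12093 genes in all, with a median of −0.19, and TGFBI was at 33.6 CPM in GelNB-CH, against 63.9 CPM in Matrigel. Of 20 integrins and matrix receptors, 10 were higher and 10 lower, beside 4962 and 7131 of 12093 genes in all. Their median was −0.03, which is smaller than the shift of either scaling. OTOR was at 67.0 CPM in GelNB-CH, against 23.2 CPM in Matrigel in subgroup 1, a ratio of 2.89. TFAP2B, a neural crest factor, was at 20.4 and 10.5 CPM over all cartilage-rule cells. ADAMTSL1, a secreted protein related to matrix proteases, was at 39.1 and 75.8 CPM.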
